A study of Mus musculus with 6 samples.

Results

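Small Cajal body RNA (scaRNA) genes were followed in small RNA libraries of thymic Treg cells, the regulatory T cells that carry the transcription factor Foxp3. Members were all genes of the count files to which the mouse annotation GENCODE vM21 gives the biotype scaRNA, irrespective of their counts. This gave 51 of the 54547 genes in the files. Of these 51 genes, 16 had at least 1 count in any library and 35 had 0 counts in all 6 libraries, and 13 passed the filter used for testing, a minimum of 10 counts in no fewer than 3 libraries. The 16 counted genes held 6630 counts in all, 0.487% of all counts on genes.

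Treg cells were sorted from thymi of mice aged 7 weeks, with the strain background labelled C5BL6/N, as 3 WT and 3 miR-181a1/b1 -/- samples. The miR-181a1/b1 -/- mice carry a deletion of the miR-181a1/b1 cluster and the WT mice do not, and no other allele or treatment is labelled for either genotype. The methods give a pool of several thymi as the source of each sample, so that a library stands for a pool of animals. The study asked which small RNAs differ between the genotypes, with microRNAs as its subject, and scaRNAs were counted in the same libraries.

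scaRNAs guide the chemical modification of the small nuclear RNAs (snRNAs) of the spliceosome. Those with C and D boxes bind fibrillarin (Fbl), Nop56, Nop58 and Snu13 and direct 2′-O-methylation, those with an H box and an ACA near the 3′ end bind dyskerin (Dkc1), Nhp2, Nop10 and Gar1 and direct pseudouridylation, and some carry both kinds of domain. They differ from nucleolar guide RNAs (snoRNAs) in being held in Cajal bodies, nuclear bodies built around coilin (Coil), where the protein Wrap53 binds a short signal called the CAB box. Most lie in introns of other genes and are released as the intron is processed.

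The sequences below show the box elements that split the counted genes and the near copies that bear on how their reads could be counted. They are those of the GENCODE vM21 transcripts on GRCm38, read 5′ to 3′. C box and D box scaRNAs come first, with capitals on ATGATGA or GTGATGA, which hold the C box, and on the last CTGA, which is the D box. Gm22009 had the most counts of all scaRNA genes and lies in an intron of Kpna4 (first bases, chr3:69085328-69085447, and last bases, chr3:69085105-69085224, minus strand), Scarna2 is a gene of its own (chr3:108554338-108554457, minus strand), and Gm25395 lies in an intron of Atg16l1 (chr1:87776938-87777209, plus strand).
Gm22009, first 120 bases: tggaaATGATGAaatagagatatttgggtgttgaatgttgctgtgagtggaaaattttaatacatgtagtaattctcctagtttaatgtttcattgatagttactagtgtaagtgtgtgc
Gm22009, last 120 bases: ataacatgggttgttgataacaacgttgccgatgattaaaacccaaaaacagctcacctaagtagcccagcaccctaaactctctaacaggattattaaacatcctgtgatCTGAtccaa
Scarna2, last 120 bases: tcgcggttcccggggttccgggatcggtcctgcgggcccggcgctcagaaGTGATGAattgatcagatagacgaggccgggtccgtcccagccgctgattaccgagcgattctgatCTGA
Gm25395: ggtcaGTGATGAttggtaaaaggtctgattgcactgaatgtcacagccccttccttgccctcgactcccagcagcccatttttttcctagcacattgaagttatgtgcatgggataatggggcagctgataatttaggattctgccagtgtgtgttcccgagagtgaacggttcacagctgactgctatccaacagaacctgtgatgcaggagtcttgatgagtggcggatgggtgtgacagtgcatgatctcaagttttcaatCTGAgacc

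The next sequences end in an ACA, in capitals, within their last 8 bases, and capitals inside them mark TGAG, the core of the CAB box. Scarna8, which guides modification of the U2 snRNA, lies in an intron of Haus6 (chr4:86586453-86586583, minus strand). The others are set beside their nearest relative among the scaRNA genes. Gm22442 in an intron of Chd3 (chr11:69350518-69350661, minus strand) had counts and Gm23386 in no gene (chr11:19693155-19693298, minus strand) had 0. Scarna3a in an intron of Cop1 (chr1:159340283-159340422, plus strand) had counts and Scarna3b in Dcaf5 (chr12:80391613-80391751, minus strand) had 0. Gm24289 in an intron of Tipin (chr9:64295931-64296065, plus strand) had counts and Gm23505 in no gene (chr2:51493653-51493782, minus strand) had 0.
Scarna8: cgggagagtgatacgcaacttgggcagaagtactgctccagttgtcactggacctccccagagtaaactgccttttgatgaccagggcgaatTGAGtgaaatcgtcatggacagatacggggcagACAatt
Gm22442: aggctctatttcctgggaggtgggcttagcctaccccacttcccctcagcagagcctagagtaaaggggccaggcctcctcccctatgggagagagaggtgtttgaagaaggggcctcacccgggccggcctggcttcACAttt
Gm23386: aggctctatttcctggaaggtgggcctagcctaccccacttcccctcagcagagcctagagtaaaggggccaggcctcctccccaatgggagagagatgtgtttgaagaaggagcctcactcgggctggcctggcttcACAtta
Scarna3a: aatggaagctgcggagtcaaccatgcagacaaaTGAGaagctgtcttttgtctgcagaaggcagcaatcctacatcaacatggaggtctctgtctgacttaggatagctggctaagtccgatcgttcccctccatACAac
Scarna3b: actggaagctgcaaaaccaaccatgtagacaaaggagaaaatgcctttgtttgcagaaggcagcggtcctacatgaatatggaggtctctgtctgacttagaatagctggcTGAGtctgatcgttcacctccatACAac
Gm24289: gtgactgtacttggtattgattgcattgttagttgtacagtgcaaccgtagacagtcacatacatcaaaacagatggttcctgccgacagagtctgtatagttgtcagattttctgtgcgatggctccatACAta
Gm23505: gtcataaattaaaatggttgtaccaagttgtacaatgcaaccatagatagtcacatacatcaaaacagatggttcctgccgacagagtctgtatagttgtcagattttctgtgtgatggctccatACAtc

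By these box elements, the counted genes held both kinds of guide RNA. An ACA was sought only in the last 8 bases, so a gene with both kinds of domain could be placed with the C and D boxes. Of the 16, 10 ended in an ACA, 5 had the C and D boxes and Gm23119 had neither by these rules. Of the 13 tested, 9 ended in an ACA and 4 had the C and D boxes (Gm22009, Scarna2, Scarna17 and Gm25395). For comparison, an ACA stood in the last 8 bases of 95.2% of the 42 Snora genes, which are nucleolar H/ACA guides, and of 7.14% of the 98 Snord genes, which are nucleolar C/D guides, and a CTGA stood in the last 20 bases of 98.0% of the Snord genes. ATGATGA or GTGATGA was found in 72.4% of the Snord genes and in 0 of the 42 Snora genes. TGAG was found in 6 of the 9 tested ACA-ended scaRNAs, in 45.2% of the Snora genes and in 83.7% of the Snord genes, so that these 4 letters alone did not set scaRNAs apart. Gm22009 also held a run of alternating T and G of 28 bases between its ends, and no Snora or Snord gene had such a run of 10 bases or more. The letters were searched on the transcribed strand.

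Of the 16 counted genes, 13 lay inside another gene on the same strand, against 18 of the 35 genes with 0 counts. The 18 include 10 identifiers that stand in pairs at the same place. With each pair counted once, the 35 become 30. The hosts of the 13 tested genes were Kpna4 (Gm22009), Chd3 (Gm22442), Chd4 (Gm23751), Cop1 (Scarna3a), Bud23 (Gm25492), Haus6 (Scarna8), Ppp1r8 (Gm22767), Tipin (Gm24289), G3bp2 (Gm22728), Atg16l1 (Gm25395) and the non-coding Snhg10 (Scarna13). Scarna2 and Scarna17 had no host. Scarna6, the guide RNA U88 that modifies the U5 snRNA, lay 7346 bases downstream of Gm25395 in the same host, Atg16l1, and the 2 sequences aligned at 63.0% identity.

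Counts on genes ran from 168293 to 307840 per library, both in miR-181a1/b1 -/- libraries, and 75.7% to 80.3% of the records of a library were given to no gene. Most of these records had no unique alignment (41.7% to 46.2% of the library) or lay on more than 1 gene (20.4% to 24.0%), which limits any gene with a near copy or an overlapping neighbour. The 5 Treg cell markers summed to 182 to 218 counts in WT and 151 to 249 counts in miR-181a1/b1 -/- libraries, with Foxp3 counted in all 6. Ikzf2 alone gave 78 to 125 of these counts per library, whereas Ctla4 had 1 count in WT replicate 3 and 0 in every other library. Of 6 markers of double-positive thymocytes, 4 were counted, at 1 to 4 and 4 to 5 counts per library in all, with Rag2 and Ptcra at 0. The 5 erythroid markers were at 0, the 4 B cell markers summed to at most 2 counts and the 5 myeloid markers to at most 1. Mir181a-1 had 1 count in 1 WT library and Mir181b-1 had 0, so the deleted genes could not serve as a check of the labels here. In bulk samples, fewer cells of a type and less RNA per cell cannot be told apart.

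The scaRNA counts were carried by few genes. Gm22009, Scarna2, Gm22442 and Scarna3a together made up 61.5% of the 6630 counts, and the 3 counted genes below the filter made up 59 counts. Gm22009 alone took between 15.4% and 21.2% of a library's scaRNA counts. The 5 genes with C and D boxes together took between 38.4% and 49.1%, with a mean of 43.9% ± 2.75 (SD, n = 3) for WT libraries and 44.0% ± 5.35 (SD, n = 3) for miR-181a1/b1 -/- libraries. The ACA-ended genes took 56.1% ± 2.78 (SD, n = 3) and 56.0% ± 5.41 (SD, n = 3). The balance of these 2 sets of genes thus differed by less than the spread within a genotype.

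Levels are given as CPM, the usual depth-scaled count, with the counts on tested genes as library size and TMM scaling factors. Gm22009 stood at 727, 849 and 1181 CPM in the WT libraries, in the order of their replicate numbers, and at 899, 817 and 1526 CPM in the miR-181a1/b1 -/- libraries. Scarna2, which guides 2′-O-methylation of the U2 snRNA, stood at 667, 645 and 906 CPM in WT and at 820.2, 722 and 1095 CPM in miR-181a1/b1 -/- libraries. In both genes replicate 3 was the highest library of its genotype and the genotypes overlapped. Gm22442 stood at 682, 742 and 856 CPM in WT and at 681, 817 and 927 CPM in miR-181a1/b1 -/- libraries. Scarna3a, an H/ACA guide, stood at 463, 833 and 888 CPM in WT and at 470.4, 631 and 993 CPM in miR-181a1/b1 -/- libraries. Gm22442 had the narrowest spread of the 13 genes, with a 1.36-fold range over the 6 libraries, whereas Scarna3a covered a 2.14-fold range within which replicate 1 was lowest in both genotypes.

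Scarna17, a C/D guide RNA of the type of U91, had another highest library in WT. It stood at 563, 437 and 369.5 CPM in WT and at 404, 417 and 496 CPM in miR-181a1/b1 -/- libraries, so that WT replicate 1 was its highest library and WT replicate 3 its lowest, while miR-181a1/b1 -/- replicate 3 was the highest of its genotype. Among the ACA-ended genes of middle level, Gm25492 ranged from 279 to 374 CPM in WT and from 241 to 459 CPM in miR-181a1/b1 -/- libraries, and Gm22767 ranged from 239 to 305 CPM and from 211 to 345 CPM. Scarna8 stood at 224, 229 and 324 CPM in WT and at 229, 327 and 398 CPM in miR-181a1/b1 -/- libraries. For Scarna8, miR-181a1/b1 -/- replicates 2 and 3 lay above every WT library and miR-181a1/b1 -/- replicate 1 lay among them.

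The same arrangement was found for Gm23751 and Gm24289, except that miR-181a1/b1 -/- replicate 1 fell below every WT library. Gm23751 stood at 139, 147 and 216 CPM in WT and at 115, 248 and 328 CPM in miR-181a1/b1 -/- libraries. Gm24289 stood at 149, 137 and 212 CPM in WT and at 121, 271 and 287 CPM in miR-181a1/b1 -/- libraries. Gm22728 stood at 59.7, 117 and 180.3 CPM in WT and at 109, 197 and 189 CPM in miR-181a1/b1 -/- libraries. Its range of 3.30-fold was the widest of the 13 genes, and its lowest library was WT replicate 1 with 12 counts.

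The tested genes with the fewest counts were Scarna13 and Gm25395, each with at least 10 counts in 5 libraries. Scarna13, the guide RNA U93 that directs pseudouridylation of the U2 and U5 snRNAs, stood at 59.7, 45.7 and 99.1 CPM in WT and at 90.5, 113 and 73.8 CPM in miR-181a1/b1 -/- libraries, from 9 to 22 counts. Gm25395 stood at 89.6, 102 and 58.6 CPM in WT and at 36.2, 62.0 and 57.4 CPM in miR-181a1/b1 -/- libraries, from 6 to 20 counts. For Gm25395, 2 of the 3 miR-181a1/b1 -/- libraries lay below every WT library and miR-181a1/b1 -/- replicate 2 lay above WT replicate 3 only.

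Below the filter, Scarna6 had 10, 6 and 7 counts in WT and 8, 3 and 4 counts in miR-181a1/b1 -/- libraries, and reached 10 counts in 1 library only. Gm24644, in Fbxo3, had 4, 0 and 2 counts in WT and 2, 6 and 4 counts in miR-181a1/b1 -/- libraries. Gm23119 had 3 counts in all and lay 91 bases from Scarna17 on the same strand. None of these 3 genes was tested with the filter in place.

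**Figure D1:**
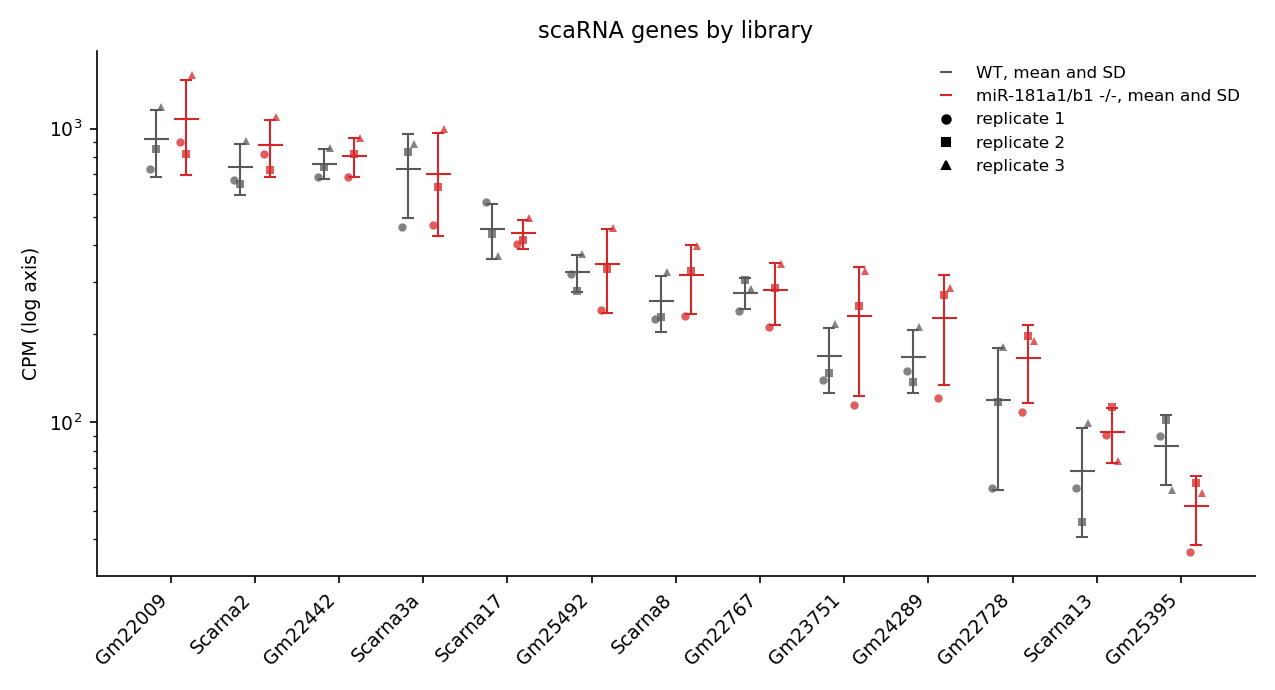
Level of the 13 tested scaRNA genes in each library, in CPM on a log axis, ordered by total count; points are libraries, and horizontal bars with whiskers are the mean and SD of 3 libraries. WT (grey) and miR-181a1/b1 -/- (red) libraries overlap for all 13 genes, from Gm22009 at 727 to 1526 CPM down to Gm25395 at 36.2 to 102 CPM.

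Since longer RNAs can give more fragments, genes were ordered by CPM per 100 bases. The whole annotated length was used, although the part shared with other transcripts differed between genes. The share of 20-base stretches found elsewhere was 85% for Scarna17, 41.4% for Gm24289 and 31.2% for Gm22442. It was 0% for Gm25492, Scarna8 and Scarna2, and its effect on the order was not tested. Scarna17, Gm22442 and Scarna3a led at 567 ± 88.8, 545 ± 69.1 and 509 ± 160.1 CPM per 100 bases (SD, n = 6 libraries), and these 3 held ranks 1 to 3 in every library. Their order among themselves was not fixed, with each of the 2 neighbouring pairs in this order in 3 of 6 libraries. Gm22009 followed at 291 ± 87.5 CPM per 100 bases and stood below Scarna3a in 6 of 6 libraries. Gm25492, Scarna8, Scarna2, Gm22767, Gm23751 and Gm24289 then ran from 259 to 145 CPM per 100 bases with SDs of 28.8 to 59.5. Gm25492 stood above Scarna8 in 6 of 6 libraries, Scarna8 above Scarna2 and Scarna2 above Gm22767 in 5 of 6, and the order of the next pairs held in 4 and 3 of 6 libraries. Gm22728 at 110.0 ± 42.8 was eleventh in every library. Scarna13 at 29.2 ± 9.16 and Gm25395 at 24.8 ± 8.77 came last in every library, and their order held in 4 of 6 libraries. The high and low positions thus included both ACA-ended and C/D box genes.

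**Figure D2:**
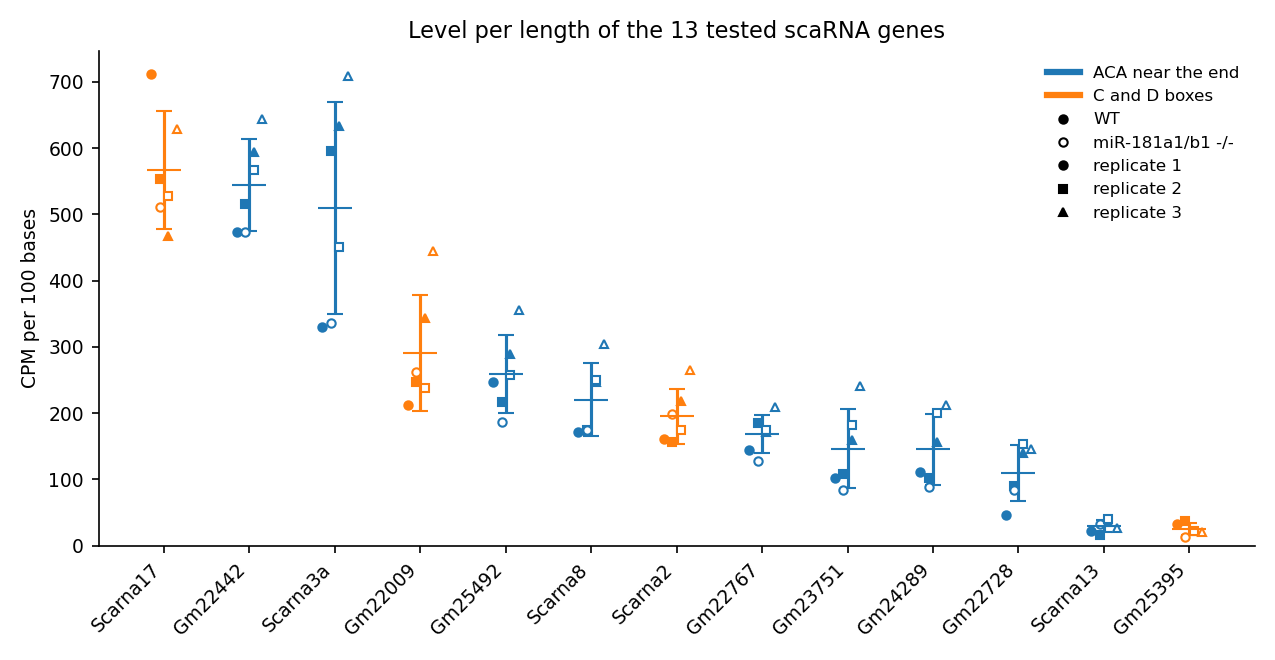
CPM per 100 bases of the 13 tested scaRNA genes, ordered by their mean; points are the 6 libraries, filled for WT and open for miR-181a1/b1 -/-, with shape for the replicate number, bars and whiskers are the mean and SD over 6 libraries, and colour marks the box elements. Scarna17, Gm22442 and Scarna3a lie highest (means of 509 to 567), and Scarna13 and Gm25395 lie lowest (means of 29.2 and 24.8).

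The question of the design is whether scaRNAs differed between the genotypes. By the quasi-likelihood test of edgeR, with p-values adjusted by Benjamini-Hochberg over the 1391 tested genes, 0 of 13 scaRNA genes were called higher and 0 lower in miR-181a1/b1 -/- samples at an adjusted p under 0.05, beside 0.0% of all tested genes in each direction. The adjusted p-values of the 13 genes ran from 0.974 to 0.997. At an unadjusted p under 0.05 the count was also 0 of 13 in each direction, beside 2.52% of all tested genes higher and 2.66% lower, and DESeq2 called 0 as well. For 0 of 13 genes did all miR-181a1/b1 -/- libraries lie above or all below the WT libraries, which held for 3.24% and 4.82% of all tested genes. The exact two-sided permutation test on log2 CPM gave p-values of 0.2 to 1 for the 13 genes, where 3 samples against 3 cannot give less than 0.1.

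Of the 13 fitted changes, 6 were larger than their standard error and 0 were larger than 2 standard errors. The log2 fold change of miR-181a1/b1 -/- against WT was highest for Gm23751 at 0.48 (SE 0.33, unadjusted p = 0.162 in edgeR), Gm22728 at 0.47 (SE 0.35) and Gm24289 at 0.46 (SE 0.32). It was 0.40 (SE 0.35) for Scarna13, 0.30 (SE 0.28) for Scarna8, 0.25 (SE 0.26) for Scarna2 and 0.24 (SE 0.28) for Gm22009. It lay between -0.05 and 0.10 for Gm25492, Gm22442, Gm22767, Scarna17 and Scarna3a. Gm25395 had the most negative value at -0.65 (SE 0.36, 95% interval -1.38 to 0.09, unadjusted p = 0.0812 in edgeR). The order of these genes rested on single libraries. With 1 library left out, the value ranged from 0.12 (without miR-181a1/b1 -/- replicate 3) to 0.77 (without miR-181a1/b1 -/- replicate 1) for Gm23751, from 0.13 (without WT replicate 1) to 0.91 (without WT replicate 3) for Gm22728, and from 0.24 to 0.73 (without miR-181a1/b1 -/- replicates 3 and 1) for Gm24289. It ranged from 0.19 (without WT replicate 2) to 0.78 (without WT replicate 3) for Scarna13. Without miR-181a1/b1 -/- replicate 3, Scarna13 had the highest value of the 13 genes, at 0.56. For Scarna8 (0.11 to 0.50) and Scarna2 (0.066 to 0.43), the lowest value came without miR-181a1/b1 -/- replicate 3 and the highest without WT replicate 3. For Gm22009 the direction turned, from -0.092 without miR-181a1/b1 -/- replicate 3 to 0.46 without WT replicate 3. The genes between -0.05 and 0.10 all ranged through 0 as well, among them Scarna3a (-0.39 to 0.15), Gm25492 (-0.17 to 0.29) and Scarna17 (-0.18 to 0.11). Gm25395 stayed negative, from -0.86 to -0.48. With all libraries, all 13 intervals held 0, and for 8 of the 13 genes the whole interval lay within 1 log2 unit of 0.

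As a list, 10 of the 13 values were positive and 3 negative, beside 49.3% positive among all tested genes, and their median was 0.24, beside -0.004 for all 1391 genes. TMM factors taken over snoRNA, scaRNA and snRNA genes lowered the 13 scaRNA values by 0.09 to 0.17 and the median of all genes to -0.11, and then 7 of the 13 were positive with a median of 0.10. Relative to the median of all genes, the scaRNA median was 0.24 with the usual factors and 0.21 with these. The split depended on single libraries. Without miR-181a1/b1 -/- replicate 3 the median was -0.01 with 6 of 13 positive, without WT replicate 1 it was 0.11 with 9 of 13 positive, without WT replicate 2 it was 0.16 with 11 of 13 positive, and without WT replicate 3 it was 0.43 with 11 of 13 positive. The 9 ACA-ended genes had a median of 0.30 with 8 positive, and the 4 genes with C and D boxes had a median of 0.09 with 2 positive. Without miR-181a1/b1 -/- replicate 3 the medians were 0.11 with 5 of 9 positive and -0.12 with 1 of 4 positive, and with TMM over snoRNA, scaRNA and snRNA genes they were 0.17 with 5 of 9 positive and -0.040 with 2 of 4 positive. Among genes with 10 counts in every library the order of the medians turned, with 0.20 for 8 ACA-ended genes and 0.24 for 3 genes with C and D boxes. Leaving out another library gave medians of 0.13 to 0.50 for the ACA-ended genes, lowest without WT replicate 1 and highest without WT replicate 3, and of 0.042 to 0.16 for the genes with C and D boxes, lowest without WT replicate 2 and highest without miR-181a1/b1 -/- replicate 2. The nucleolar guides gave 13 of 13 positive values with a median of 0.29 for Snora genes and 21 of 38 with a median of 0.02 for Snord genes; with TMM over snoRNA, scaRNA and snRNA genes, 13 of 13 and 13 of 38 were positive, and the medians relative to all genes were 0.28 and 0.0029. Without miR-181a1/b1 -/- replicate 3, 11 of 13 Snora values (median 0.15) and 6 of 38 Snord values (median -0.13) were positive. The Snora median was 0.13 without WT replicate 1, 0.49 without WT replicate 3 and 0.52 without miR-181a1/b1 -/- replicate 1, and the Snord median was 0.11 without miR-181a1/b1 -/- replicate 1. Of the 13 Snora and 38 Snord genes, 1 Snora gene (higher) and 1 Snord gene (lower) had an unadjusted p under 0.05 in edgeR. This stands beside 2.52% of all tested genes higher and 2.66% lower. After adjustment 0 of them were called, beside 0.0% of all tested genes in each direction.

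**Figure D3:**
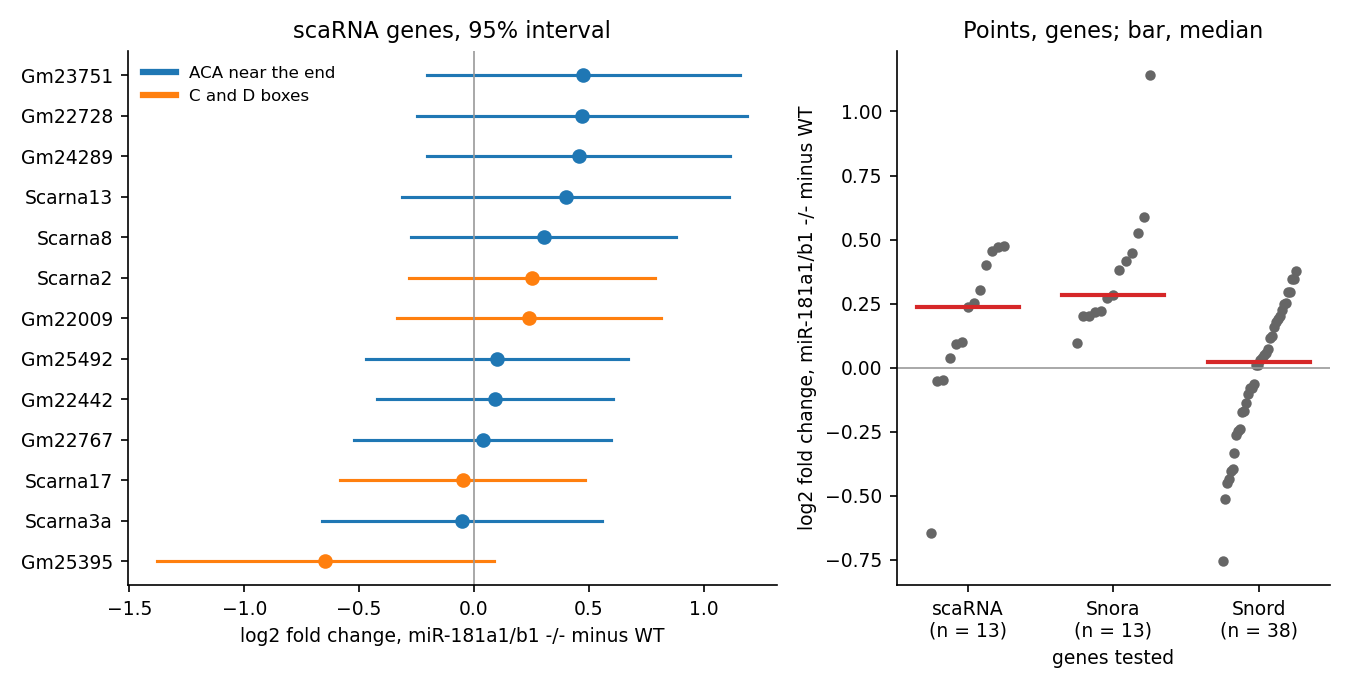
Left, log2 fold change of miR-181a1/b1 -/- against WT for each tested scaRNA gene with its 95% interval from edgeR, coloured by box elements; right, the same quantity for each tested scaRNA, Snora and Snord gene (points) with the list's median (bar). All 13 intervals on the left hold 0, and the medians on the right are 0.24, 0.29 and 0.02.

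The libraries of a genotype were not alike for the scaRNA genes. miR-181a1/b1 -/- replicate 3 was the highest of the 6 libraries for 9 of 13 genes and lay above the gene's mean log2 CPM for 11 of 13. WT replicate 3 also lay above the mean for 11 of 13, whereas WT replicate 1 and miR-181a1/b1 -/- replicate 1 each did for 2 of 13. miR-181a1/b1 -/- replicate 3 was the deepest library and miR-181a1/b1 -/- replicate 1 the shallowest, and the part of depth in this pattern was not tested. Scarna17 and Gm25395 were the 2 genes for which WT replicate 3 lay below the mean.

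**Figure D4:**
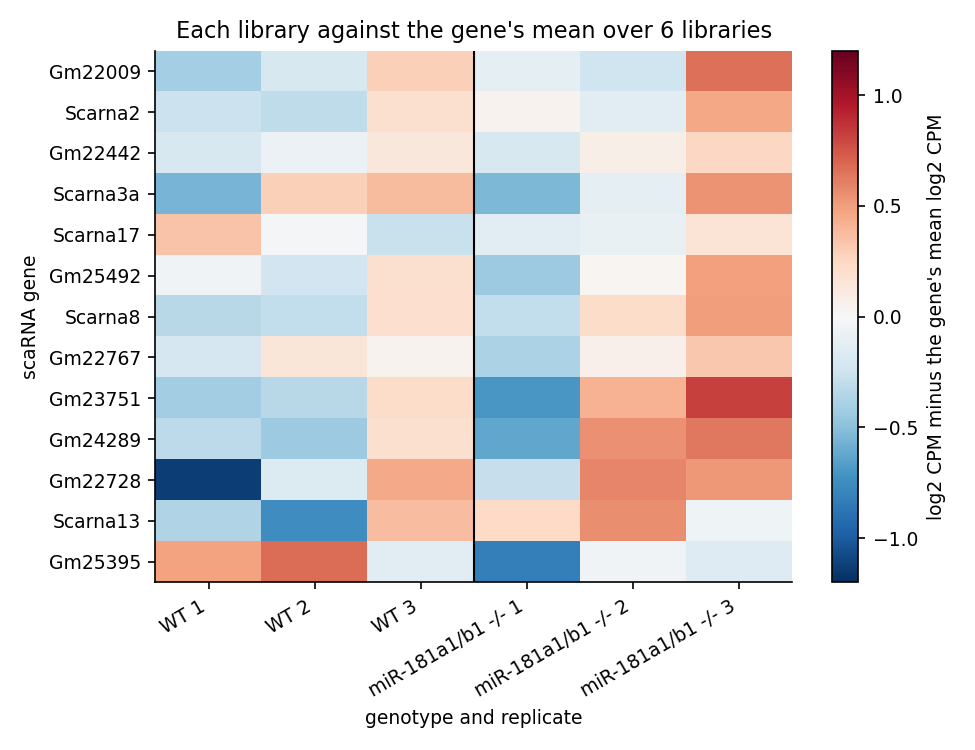
Log2 CPM of each tested scaRNA gene in each library minus the gene's mean over the 6 libraries, red above and blue below the mean; the line separates WT from miR-181a1/b1 -/-. Replicate 3 of both genotypes is above the mean for 11 of 13 genes, and replicate 1 of both is below it for 11 of 13.

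The scaRNA share of all counts on genes showed the same. It was 0.403%, 0.430% and 0.546% for the WT libraries and 0.443%, 0.481% and 0.571% for the miR-181a1/b1 -/- libraries, again by replicate number. The 95% Wilson interval, which covers counting error only, was 0.517% to 0.576% for WT replicate 3 and did not reach the 0.378% to 0.430% of WT replicate 1. The mean of the WT libraries was 0.459% ± 0.0757 (SD, n = 3) and that of the miR-181a1/b1 -/- libraries 0.498% ± 0.0657 (SD, n = 3), a difference smaller than either SD. The difference rested on single libraries. It was 0.0818 percentage points without WT replicate 3 and 0.00258 without miR-181a1/b1 -/- replicate 3. Measured against snoRNA, scaRNA and snRNA counts only, the share was 1.01% ± 0.178 in WT and 1.10% ± 0.0844 in miR-181a1/b1 -/- libraries (SD, n = 3 each). That difference, 0.0962 percentage points, was smaller than the WT SD and larger than the miR-181a1/b1 -/- SD.

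**Figure D5:**
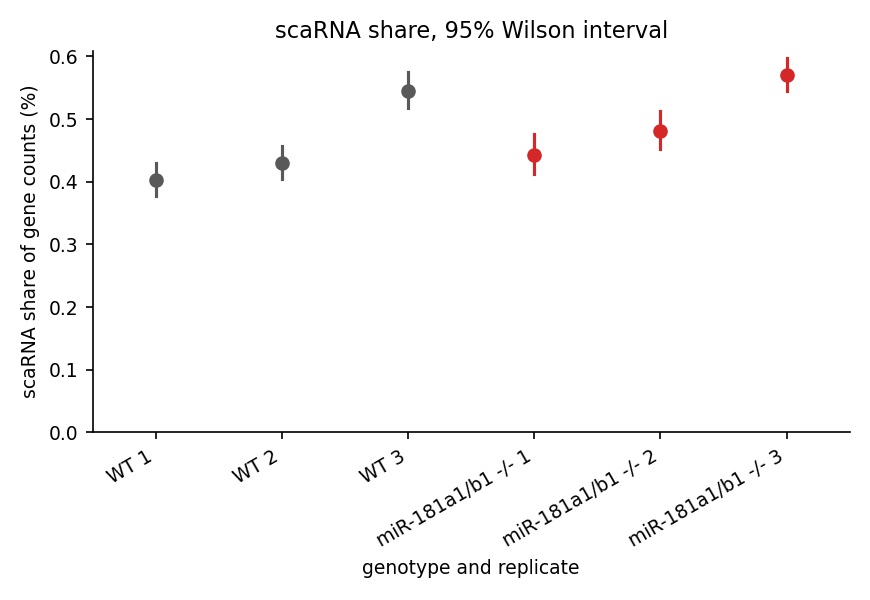
Share of gene counts that fell on scaRNA genes in each library, in percent, with its 95% Wilson interval. The WT libraries lie between 0.403% and 0.546% and the miR-181a1/b1 -/- libraries between 0.443% and 0.571%, with replicate 3 highest in both.

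Most host genes, but not Chd4 and Fbxo3, had fewer counts than the scaRNAs inside them, without scaling by length, and 5 of the 12 hosts of counted scaRNA genes were tested. Chd3 and Chd4, chromatin remodelers, had 311 and 252 counts in all, beside 957 on Gm22442 and 248 on Gm23751. Fbxo3 had more counts than Gm24644 inside it, at 55 against 18. Kpna4, a nuclear import receptor, had 100 counts beside 1241 on Gm22009 in its intron. Cop1, a ubiquitin ligase, had 12 counts beside 886 on Scarna3a, Haus6 had 5 beside 355 on Scarna8, and Snhg10 had 0 beside 96 on Scarna13. By edgeR, 0 of the 5 tested hosts were called, also at an unadjusted p under 0.05, with log2 fold changes of 0.10 (SE 0.26) for Chd3, -0.20 (SE 0.28) for Chd4, 0.01 (SE 0.35) for Kpna4, -0.29 (SE 0.34) for G3bp2 and -0.83 (SE 0.50) for Fbxo3. These are counts of fragments in small RNA libraries, which hold little of a long messenger RNA, so they do not give the level of the host message.

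The proteins that build Cajal bodies and guide RNA particles were too thinly counted to compare. Of 43 listed genes, 42 had a count and 2 were tested, and by edgeR 0 of the 2 were called, also at an unadjusted p under 0.05. Nop58, a core protein of C/D particles, had 14, 13 and 15 counts in WT and 15, 11 and 13 counts in miR-181a1/b1 -/- libraries (log2 fold change -0.01, SE 0.34). Dkc1, the pseudouridine synthase of H/ACA particles, had 11, 10 and 13 counts in WT and 17, 8 and 11 counts in miR-181a1/b1 -/- libraries (log2 fold change 0.18, SE 0.39). Terc, the telomerase RNA, which itself carries an H/ACA domain and a CAB box, came next with 50 counts. Coil and Wrap53, which define the body and bind its RNAs, had 4 and 3 counts over all 6 libraries.

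Genes of the snRNA biotype held 18627 counts, 1.37% of all gene counts, of which 263 fell on the 13 genes with an snRNA name and the rest on genes with Gm names. Of the 13 named genes, 7 were counted and 2 tested. Rnu11, the U11 snRNA of the minor spliceosome, had 9, 13 and 19 counts in WT and 12, 10 and 33 in miR-181a1/b1 -/- libraries (log2 fold change 0.47, SE 0.37). Rnu5g, a U5 snRNA, had 10, 20 and 11 counts in WT and 4, 3 and 9 in miR-181a1/b1 -/- libraries. It was lower by 1.28 on the log2 scale, written as a log2 fold change of -1.28 (SE 0.48), with an unadjusted p = 0.0129 and an adjusted p = 0.815 in edgeR, and so was not called. Rnu12 had 84 counts, 41 of them in miR-181a1/b1 -/- replicate 3, and did not pass the filter. U snRNAs have many near-identical copies in the genome, so these gene-level counts are uncertain.

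Most of the 35 scaRNA genes without counts shared some sequence or place with another identifier. Of the 35, 28 shared at least 1 stretch of 20 bases with another GENCODE transcript, and in Gm27414 and Mir1839 it was only 1. An exon of another identifier was overlapped by 14, of which 10 overlapped only their own second identifier at the same place. Of the 35, 6 did neither. Of the 16 counted genes, 7 shared such a stretch and 2 overlapped an exon of another gene. Gm23370, Gm22813, Gm25820, Gm22897 and Gm26413 are each listed under 2 identifiers at the same place, which differ by 1 base at an end, and these account for 10 of the 35. Gm22416 and Gm25119 are identical over all 88 bases. Mir1839, as its scaRNA entry is named, lies whole within an exon of 2900076A07Rik (4 counts), Gm26083 within Snhg20 (4 counts), and Gm24718 lies opposite an exon of Msn (241 counts). A read on such a place can belong to more than 1 gene. Records that lay on more than 1 gene were given to no gene, and how many came from these places was not tested. A count of 0 in a library allowed up to 0.000975% to 0.00178% of its gene counts, taken as 3 counts. This limit holds only for reads that could be given to 1 gene. For Gm22416, Gm25119 and the paired identifiers, a 0 sets no such limit on the RNA.

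In several pairs of close relatives 1 member held the counts, beside relatives such as Gm22416 and Gm25119 of which neither had any. Gm22442 had 957 counts and Gm23386, with 95.1% identity and a longest shared run of 58 bases, had 0. Gm24289 had 242 counts and Gm23505, with 96.2% identity over 104 aligned columns and a shared run of 65 bases, had 0. Scarna3a had 886 counts and Scarna3b, with 86.2% identity and a longest shared run of 23 bases in this alignment, had 0. In the first 2 pairs the counted gene was the one inside a host gene. Scarna3a also contains the 65 bases of Mir1843b, and Scarna13 the 65 bases of Mir3069, and both microRNA genes had 0 counts. Scarna17 shared 70 bases without a mismatch with Gm25443, and still had 543 counts while Gm25443 had 0. Gm23119 and Gm26183, their neighbours at 91 and 87 bases, were 94.1% identical, and had 3 and 0 counts. Reads from identical stretches could not be given to 1 gene by sequence, and how many such reads there were was not tested.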

How the data were processed

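Small RNA of sorted thymic Treg cells was sequenced for 3 WT and 3 miR-181a1/b1 -/- samples with the SMARTer smRNA-Seq kit. The authors trimmed adapters, removed rRNA reads with Bowtie2, aligned with STAR and deposited HTSeq counts per gene without normalization; the submitters' processing notes name GRCm38.p6. Annotation release and strand setting of the counting are not given in the sources used here. Of 54547 gene identifiers, 51550 matched GENCODE vM21 with version and 53706 without, and all 51 scaRNA genes with version. Records given to no gene, 75.7% to 80.3% per library, were left out throughout. The authors' miRNA table, with their own fold changes and p-values, was not used.

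The 1391 genes that reached 10 counts in 3 or more of the 6 libraries were tested with edgeR 4.0.16 in R 4.3.3 (TMM factors, quasi-likelihood test, no block, Benjamini-Hochberg over all tested genes, threshold 0.05), a test first tried on simulated data. Library sizes were the counts on these genes, and standard errors came from the fold change and the F statistic. DESeq2 1.42.0, other scalings and filters, a replicate block and leaving out each library were alternatives. Permutation tests and Wilson intervals used SciPy 1.17.1 in Python 3.11.15. Named were all tested scaRNA genes, every other one with a count, their hosts, and of the protein and snRNA lists those called and the 3 with most counts. Coil, Wrap53, near copies and overlapping genes were named after their values were seen. Members and lists were chosen with earlier results of these data known. Replicate libraries differed by 2.62 to 7.26 times the chi-square expected from counting, so none repeated the counts of another. This ratio cannot tell spread between pools of thymi from spread between library preparations. The p-values measure the spread between libraries, which also holds any effect shared by a replicate number. Copies outside the annotation were not searched, since no genome sequence was used here.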

Additional observations from a re-analysis of the deposited data

How the results depend on the processing

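No scaRNA gene was called in either direction under any alternative run (DESeq2, RLE factors, library totals only, TMM over snoRNA, scaRNA and snRNA genes, no filter, 10 counts in every library, the replicate block, and each library left out); with all 6 libraries and the usual settings, the count was also 0 in each direction at an unadjusted p under 0.05. The median log2 fold change of the tested scaRNA genes was 0.20 to 0.25 under RLE factors, library totals, DESeq2, the stricter filter (11 genes) and the replicate block (0.21), 0.15 without a filter (16 genes), 0.10 with TMM over snoRNA, scaRNA and snRNA genes, and -0.01 to 0.43 with 1 library left out. Over all genes, 0 were called, against 7 higher and 1 lower without a filter and at most 8 with 1 library left out. The samples share only a replicate number: deviations of same-numbered libraries correlated at 0.231, 0.0812 and 0.182, and each library correlated best with its own number, a hint from the data only. With TMM over snoRNA, scaRNA and snRNA genes, where the median of all genes was -0.11, the log2 fold change turned negative for Gm22442 (-0.022), Gm25492 (-0.051) and Gm22767 (-0.095). With 1 library left out, it ranged through 0 for Gm22442 (-0.013 to 0.19), Gm25492 (-0.17 to 0.29), Scarna17 (-0.18 to 0.11), Gm22767 (-0.14 to 0.19), Gm22009 (-0.092 to 0.46) and Scarna3a (-0.39 to 0.15). An unadjusted p under 0.05 was reached once each by Gm25395 and Gm22728 without WT replicate 3 and by Gm23751 and Gm24289 without miR-181a1/b1 -/- replicate 1, 2 of 13 in each case, beside 6.47% and 7.91% of all tested genes. The difference in scaRNA share of gene counts, 0.0388 percentage points higher in miR-181a1/b1 -/-, ranged from 0.00258 to 0.0818 with 1 library left out and was 0.0268 without Gm22009. By counting error, Scarna13 and Gm25395 were limited most, at 6 to 22 counts per library. By standard error, Gm22728 (0.349) was no better placed than Scarna13 (0.346). The causes of these shifts were not tested.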
